A study of Mus musculus with 16 samples.

Results

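The regions described here carried a peak of DNA single-strand breaks in Tdg-knockout (KO) mouse embryonic stem cells under both DMSO and talazoparib, and in wild-type (WT) cells under neither. They were selected on the measured peaks themselves: peaks of the 4 lists on chromosomes 1 to 19 were merged where they shared at least 1 bp, and a merged region was kept if it held peaks of both KO lists and of neither WT list. Of 60228 merged regions, 3174 met the rule, which is 5.27%. Since presence in the lists chose them, the contrast between KO and WT at these regions is a description of the selection and was not tested.

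The break assay, SSB-seq, labels free 3′ ends by nick translation with digoxigenin-bearing nucleotides, pulls the labelled fragments down (the immunoprecipitate, IP) and sequences them beside input DNA. All cells were ES cells of strain C57BL/6JRj kept without serum in 2i medium plus LIF. The 4 conditions were WT with DMSO, WT with 5 nM talazoparib for 24 h, KO with DMSO, and KO with 5 nM talazoparib for 24 h. KO cells had lost a Tdg minigene by excision with 4-hydroxytamoxifen (4-OHT, 5 uM for 2 h). Whether WT cells also received 4-OHT, how long cells stood in DMSO, and how many clones were used are not given in the sources used here. Each condition had 3 IP libraries and 1 input library, 16 libraries in all, and 1 peak list made from its IP libraries together, so no value has a spread between replicates. The WT libraries shared no flow cell with the KO libraries, and therefore the genotype and the sequencing run cannot be told apart. Loss of Tdg cannot be read from peak lists: within 5 kb of the gene, WT DMSO had 1 peak, KO DMSO had 2, and both talazoparib lists had 0. The assay gives no expression level, so the ES cell label was not checked against marker genes.

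TDG is a DNA glycosylase that cuts out thymine paired with guanine, and 5-formylcytosine and 5-carboxylcytosine, the last TET oxidation products of 5-methylcytosine. The abasic site it leaves is cut, giving a single-strand break that base excision repair fills and seals. Talazoparib inhibits PARP1 and PARP2, which sense such breaks and recruit the repair scaffold XRCC1, and it also traps PARP1 on DNA.

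The KO-only regions ranged from a ribosomal RNA repeat to CpG-rich promoters and CpG-poor introns, and the following 200-base windows show that range. They are the middle of 3 regions among the most tag-rich promoter and intronic ones and of 2 regions at Dppa3, the latter chosen after their values were seen. Sequences are from the RefSeq copy of GRCm38.p6 (mm10), plus strand, with CpG dinucleotides, the substrate of cytosine methylation, in capitals.
Rn18s-rs5, ribosomal RNA, chr17:39846808-39847007: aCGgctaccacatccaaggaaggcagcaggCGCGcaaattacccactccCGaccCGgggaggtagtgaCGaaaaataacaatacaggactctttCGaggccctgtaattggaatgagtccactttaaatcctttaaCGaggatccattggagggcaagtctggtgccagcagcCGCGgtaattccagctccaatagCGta
Zswim6, promoter, chr13:107890748-107890947: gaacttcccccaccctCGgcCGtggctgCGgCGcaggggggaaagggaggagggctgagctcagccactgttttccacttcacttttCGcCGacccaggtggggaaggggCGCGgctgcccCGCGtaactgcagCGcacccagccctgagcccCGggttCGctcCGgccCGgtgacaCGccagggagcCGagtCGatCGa
Akap12, intron, chr10:4333730-4333929: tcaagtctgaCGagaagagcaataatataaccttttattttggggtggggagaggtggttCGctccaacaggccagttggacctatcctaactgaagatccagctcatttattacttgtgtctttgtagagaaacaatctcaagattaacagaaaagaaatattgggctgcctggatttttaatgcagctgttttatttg
Dppa3, promoter, chr6:122626104-122626303: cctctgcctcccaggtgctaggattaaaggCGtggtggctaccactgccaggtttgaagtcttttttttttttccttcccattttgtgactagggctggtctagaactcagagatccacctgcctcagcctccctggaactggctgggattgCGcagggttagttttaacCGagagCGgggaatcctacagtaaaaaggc
Dppa3, coding exon, chr6:122628638-122628837: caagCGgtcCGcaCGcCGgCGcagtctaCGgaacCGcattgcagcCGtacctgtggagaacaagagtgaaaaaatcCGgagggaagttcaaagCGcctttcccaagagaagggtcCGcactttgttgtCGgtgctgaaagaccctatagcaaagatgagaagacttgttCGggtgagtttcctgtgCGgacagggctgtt

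The window upstream of Zswim6 held 19 CpGs and 70.0% GC, whereas the Akap12 window held 2 CpGs and 39.5% GC. The ribosomal window held 11 CpGs. The Akap12 region, in a gene for a kinase scaffold, had 29.3 normalised tags in KO DMSO and 38.6 in KO talazoparib. At Dppa3 the promoter window held 4 CpGs and the exon window 14. All 5 windows lay inside the peaks of both KO lists.

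The 3174 regions covered 3.21 Mb and held 3177 KO DMSO peaks and 3188 KO talazoparib peaks, which is 9.07% and 13.5% of those lists. They made up 23.1% (95% Wilson interval 22.4 to 23.9) of the 13715 regions found in both KO lists. The opposite set, regions of both WT lists and neither KO list, numbered 679, or 1.13% of all merged regions and 8.35% (7.77 to 8.97) of the 8130 regions found in both WT lists. Intervals here and below treat regions as independent, which neighbouring regions are not, and hold no spread between libraries. The KO lists were the longer ones: autosomal peaks numbered 35020 and 23559 in KO DMSO and KO talazoparib, against 28243 and 15343 in WT DMSO and WT talazoparib. Each list was also cut to its 15343 best-scoring peaks and the cut lists merged anew. There were then 1487 KO-only and 940 WT-only regions, fewer and more than before. The KO share of the 2 opposite sets went from 82.4% to 61.3%. Such sets can hold regions whose peak in the other genotype fell to the cut. With peaks of at least 6-fold over input, there were 1231 and 451.

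**Figure D1:**
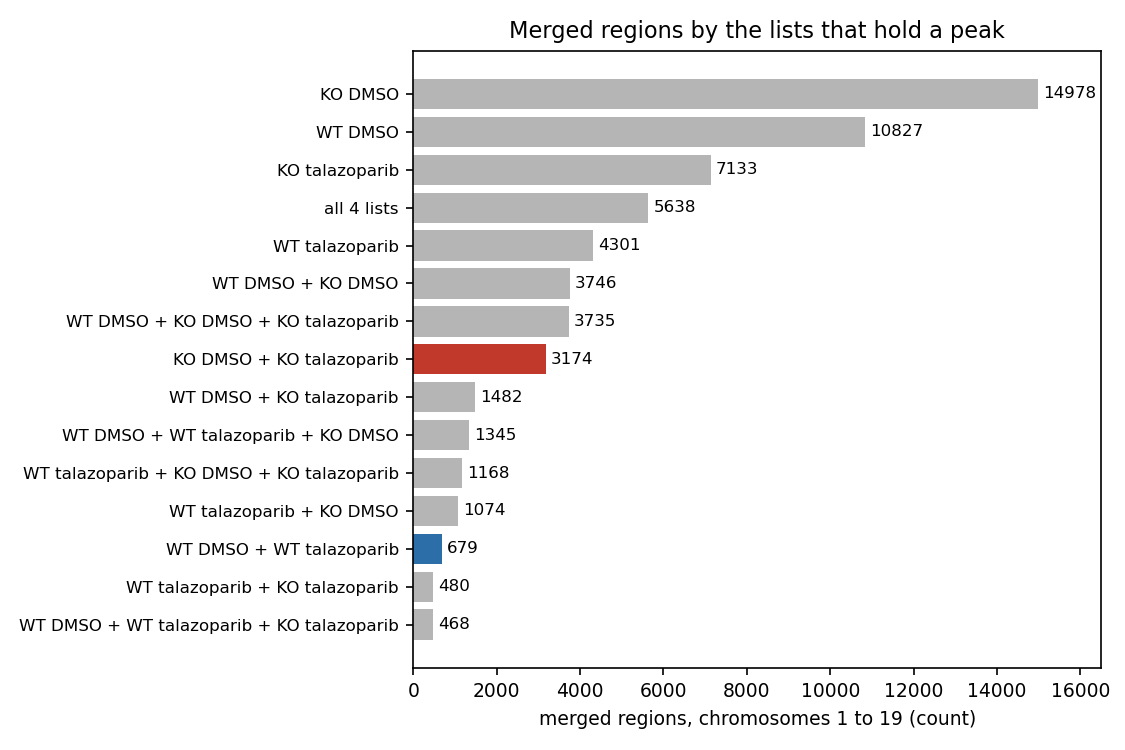
Number of merged regions on chromosomes 1 to 19 for each of the 15 combinations of the 4 peak lists; the red bar is the set described here and the blue bar the opposite WT set. The KO-only bar holds 3174 regions and the WT-only bar 679, while single-list regions of KO DMSO (14978) and WT DMSO (10827) are the longest bars.

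No WT peak does not mean no WT signal, because the tables hold values for peaks only. At the 5638 regions found in all 4 lists, where both genotypes can be read, KO tags were a median of 1.60 times WT tags under DMSO and 1.93 times under talazoparib. A general offset of that kind moved with genotype and flow cell, and its part in the KO-only set was not tested. The totals of the input libraries, 24.5 to 38.1 M tags, also differed between lists and enter the authors' fold threshold.

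Signal at the KO-only regions was moderate. The unit is the authors' normalised tag count, tags in a peak per 10 M IP tags. In KO DMSO the median was 7.09 tags, with quartiles of 5.06 and 11.1 and a range of 3.11 to 488. In KO talazoparib it was 6.47, with quartiles of 4.74 and 9.94 and a range of 3.16 to 580. Regions found in all 4 lists had medians of 22.9 tags in KO DMSO and 21.4 in KO talazoparib, so the KO-only regions lay well below them. Peaks found in 1 KO list alone were lower again, at 4.63 tags in KO DMSO and 4.44 in KO talazoparib. By the authors' score, KO-only peaks stood at the median percentile of 54.2 within the KO DMSO list and 45.6 within the KO talazoparib list. The IP was a median of 2.56 and 2.67 times its genome mean at these peaks, and the input 0.426 and 0.561 times its own. Over all autosomal peaks of KO DMSO and KO talazoparib, median tags were 6.87 and 7.45, and the input was likewise 0.426 and 0.561 times its mean.

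Input was thin under many of these peaks. The median KO-only peak had 3 input tags in KO DMSO and 3.5 in KO talazoparib. Fewer than 3 were present at 43.4% and 30.5%. Thin input was seen in the lists as a whole. All peaks of KO DMSO and KO talazoparib had medians of 3 and 4 input tags, with 46.3% and 29.8% under 3. All peaks of WT DMSO and WT talazoparib had medians of 3.5 and 2, with 30.8% and 60.5% under 3. The authors' fold over input is a value of each peak within its own list. At KO-only peaks it had medians of 5.96 in KO DMSO and 5.01 in KO talazoparib. Every listed peak is at least 4-fold, and 26.6% of KO-only peaks in KO DMSO and 48.7% in KO talazoparib lay under 5-fold. Of all peaks in those lists, 21.9% and 42.1% did. At least 3 input tags in both KO lists were present at 1473 regions, or 46.4%.

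As a set, the KO-only regions had similar tag counts under both treatments, with wide scatter between regions. The ratio of KO talazoparib to KO DMSO tags had a median of 0.946 (0.930 to 0.964) and quartiles of 0.690 and 1.25. Tags were higher under talazoparib at 1422 regions, 44.8% (43.1 to 46.5). A difference of over 2-fold was seen at 144 regions with more tags under talazoparib and at 307 with more under DMSO. Peaks were shorter under talazoparib, with medians of 628 against 752 bp, and the ratio of tag density per bp had a median of 1.07 (1.06 to 1.08). The direction of the set's median thus depends on whether tags or tag density are compared. The intervals of these medians are over regions of pooled lists and do not measure an effect of treatment. Regions of all 4 lists gave medians of 0.984 for tags and 1.18 for density. Across the 3174 regions the tags of both KO lists had a Spearman rho of 0.540, a description over regions that share libraries and the selection.

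**Figure D2:**
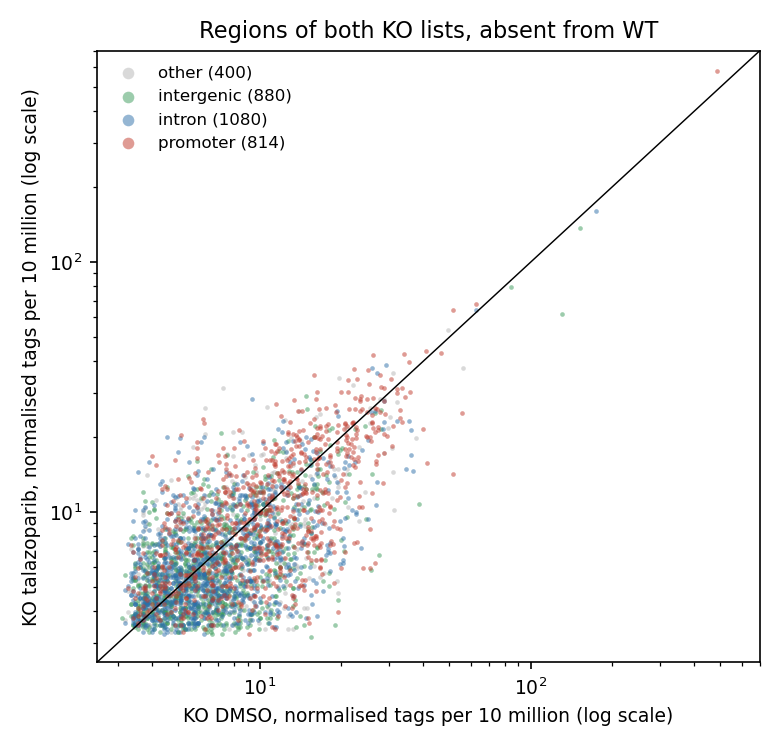
Normalised tags per 10 M in KO DMSO (x, log scale) and KO talazoparib (y, log scale) for each of the 3174 KO-only regions, coloured by the feature at their centre; the line marks equality. Most points lie between about 3 and 40 tags in both lists, and 1 promoter point reaches 488 and 580.

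The 7 most tag-rich KO-only regions lay over repeated or high-input DNA. The leading one, chr17:39846595-39847220, had 488 tags in KO DMSO and 580 in KO talazoparib. It lay inside Rn18s-rs5, a copy of the 18S ribosomal RNA gene in RefSeq. Its input was also high, at 291 and 364.5 tags, or 62.1 and 54.6 times the input mean, and its fold was 4.17 and 4.51. A region in an intron of Gphn, which encodes the synaptic scaffold gephyrin, had 174 and 160 tags at 16.7 and 15.5 times the input mean. An intergenic region 11.2 kb upstream of Hic2 had 152 and 137 tags at 6.48 and 10.2 times. In the group as a whole such DNA was rare: input stood above its own mean in both KO lists at 77 regions (2.43%) and above 5 times the mean at 6.

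The next 5 regions by tags lay at genes, 3 of them at promoters. Of the other two, the 5′ UTR region of Fbxl15, an F-box protein gene, had 49.5 tags in KO DMSO and 53.4 in KO talazoparib at 1.56 and 2.35 times the input mean. The other lay in Fcgr3, an Fc receptor gene, at an annotated transcription end and 0.568 kb from the start of Mir6546. It had 56.2 and 37.6 tags at 3.12 and 3.58 times. The region upstream of Zswim6, which encodes a zinc finger SWIM-domain protein, had 46.8 tags in KO DMSO and 43.4 in KO talazoparib at 0.597 and 0.932 times the input mean. Its fold of 11.1 in KO DMSO and 7.68 in KO talazoparib was well above the threshold, and the nearest WT peak was 58.4 kb away. Fhod1, a formin that regulates actin, had 51.8 and 64.3 tags over a 3023-bp region. The start shared by Wdr62, a centrosomal protein, and Thap8 had 41.0 and 44.0 tags. In each of the 3 promoter regions the KO values lay within 1.24-fold of each other.

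About 1 in 4 KO-only regions lay at a promoter, here 1 kb upstream to 100 bp downstream of a GENCODE M21 transcript start. Promoters held 814 regions, 25.6%, introns 34.0% and intergenic DNA 27.7%. The WT-only set had 18.9% at promoters, all merged regions 22.2%, and regions of all 4 lists 67.3%. Regions of KO DMSO alone and KO talazoparib alone had 12.3% and 11.4%. The KO-only regions therefore lay nearer to the average of all merged regions than to the shared, promoter-rich set. Of the 814 promoter regions, 700 were at a protein-coding gene, covering 734 genes.

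The promoter share was higher where the signal was higher. Of the 795 KO-only regions with the most tags, by the lower of the KO values, 47.2% were promoters, against 10.9% of the 798 with the fewest. Promoter regions had medians of 10.3 tags in KO DMSO and 9.03 in KO talazoparib, intronic regions 6.36 and 5.87, and intergenic regions 6.43 and 5.72. Promoters were 46.1% of the KO-only set with peaks of at least 6-fold, and 38.9% with each list cut to equal numbers. These sets were selected anew and are not the stronger of the 3174 regions, so they cannot show this trend. Regions can enter them when their WT peak falls to the filter. At 6-fold, WT DMSO kept 8095 of 28243 peaks and KO DMSO 19901 of 35020. Under talazoparib, WT kept 9865 of 15343 and KO 7204 of 23559. With at least 3 input tags, KO-only regions fell to 2207, but those at promoters went from 814 to 818.

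**Figure D3:**
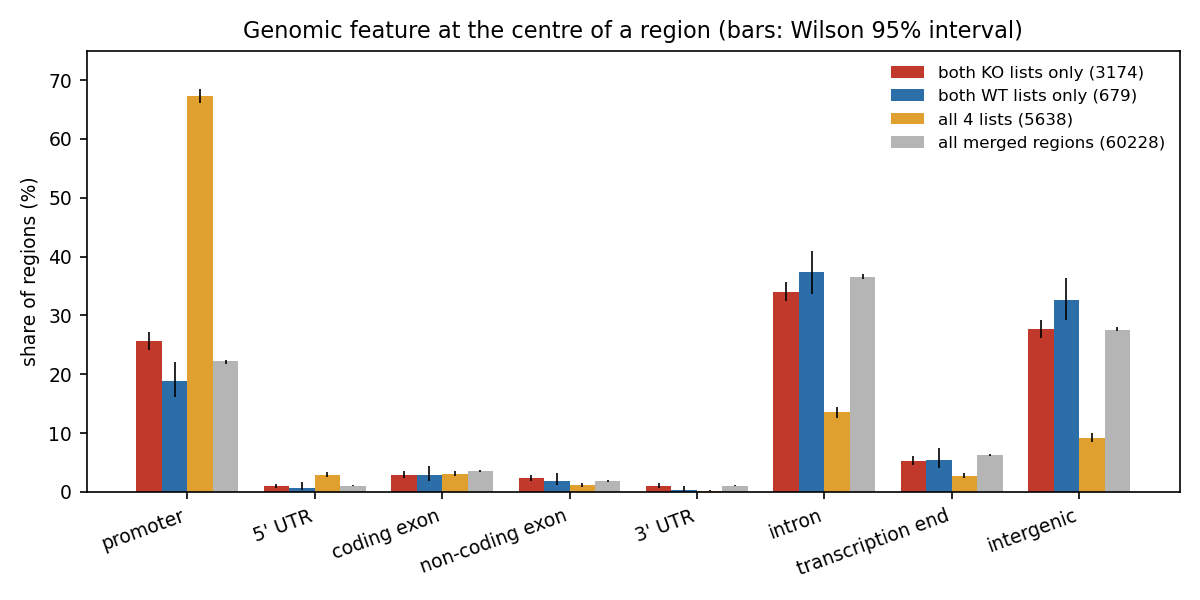
Share of regions (%) by the feature at their centre, for KO-only regions (red), WT-only regions (blue), regions of all 4 lists (orange) and all merged regions (grey), with 95% Wilson intervals. The KO-only set has 25.6% at promoters against 67.3% for regions of all 4 lists, and resembles all merged regions (22.2%).

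In base composition the KO-only regions were close to the average peak region. Their median GC content was 51.4%, against 51.1% for all merged regions, 49.9% for the WT-only set and 56.3% for regions of all 4 lists. CpG dinucleotides numbered 1.91 per 100 bp, against 1.75, 1.34 and 5.17 in the same order. The KO-only median was 2.97 with peaks of at least 6-fold, 2.70 with each list cut to equal numbers and 2.51 with at least 3 input tags. The share that was CpG-rich, with GC of at least 50% and an observed-to-expected CpG ratio of at least 0.6, was 18.1%, against 16.7%, 14.9% and 59.4%. KO-only promoters had a median of 4.85 CpGs per 100 bp and 50.6% were CpG-rich, while intronic and intergenic members had 1.54 and 1.46 CpGs per 100 bp.

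A contrast between the opposite sets was seen in simple repeats. The run CACACACA, or TGTGTGTG on the other strand, was present in the central 200 bases of 4.41% (3.75 to 5.18) of KO-only regions and of 35.8% (32.3 to 39.5) of WT-only regions. All merged regions had 8.35% and regions of all 4 lists 2.80%. Regions of KO DMSO alone had 4.66% and those of KO talazoparib alone 7.84%, so the low share was not particular to the KO-only set. The run GAGAGAGA (TCTCTCTC) was in 2.55% of KO-only and 5.60% of WT-only regions. Masked repeats made up a median of 13.2% of a KO-only region and 20.2% of a WT-only one.

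Among factor motifs searched on both strands of the same window, the GC box GGGCGG, bound by Sp and Klf factors, was in 20.8% of KO-only regions, against 17.5% of all merged regions. At promoters it was in 39.9% against 42.0%, in introns in 13.6% against 9.34%, and in intergenic DNA in 12.6% against 8.43%. The Esrrb-type site TCAAGGTCA was in 1.04% against 0.785%, and the POU octamer ATGCAAAT in 1.35% against 1.17%. The E-box CACGTG was in 4.66% against 4.62%, the NRF1-type site GCGCATGC in 0.914% against 1.23%, and TATAAA in 5.51% against 5.83%. The NRF1-type site was in 0.860% of KO-only promoters, 7 regions, against 2.31% of all promoter regions. In introns it was in 0.556% against 0.894%, and in intergenic DNA in 1.48% against 0.902%. Apart from the GC box these motifs were rare, so a small gap in percentage points does not show likeness.

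KO-only regions were often near WT peaks without touching them. The nearest WT peak was a median of 6.46 kb away, 8.40 kb for WT DMSO and 18.6 kb for WT talazoparib. It was within 1 kb for 11.6% of regions, within 10 kb for 62.0% and within 50 kb for 90.8%. WT-only regions lay about as near to KO peaks, with 16.1% within 1 kb, 59.5% within 10 kb and 86.0% within 50 kb. The most isolated region was 2633 kb from one. Keeping only regions with no WT peak within 5 kb left 1796, against 381 WT-only regions held to the same rule. The next KO-only region was within 10 kb for 11.9%, so most stood alone.

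**Figure D4:**
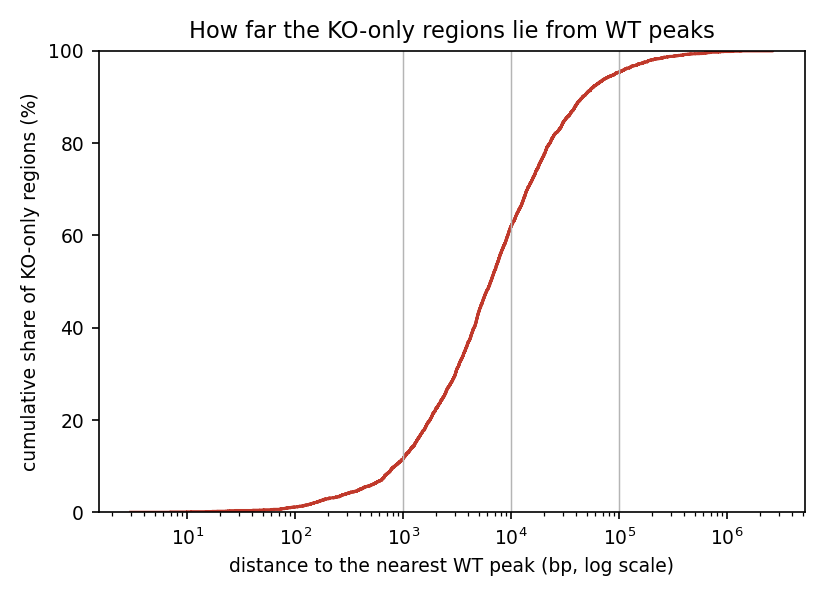
Cumulative share (%) of the 3174 KO-only regions by distance to the nearest WT peak (bp, log scale); grey lines mark 1, 10 and 100 kb. The curve passes 11.6% at 1 kb, 62.0% at 10 kb and 95.3% at 100 kb.

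At the edge of the rule, the 3 KO-only regions nearest to a WT peak stood 3, 7 and 7 bp from it, at the start of AC132404.1, in intergenic DNA near Rpap3, and in a non-coding exon at Anks1. Their tags were 4.84 and 16.1, 6.51 and 5.34, and 10.8 and 5.34 in KO DMSO and KO talazoparib. Just outside it, 3 regions of both KO lists were lost through a WT DMSO peak that shared 3, 5 or 6 bp with a KO peak. They lay in an intron of Tead4, at an annotated transcription end in Erbb3 and in intergenic DNA. Their tags were 4.99 and 9.41, 11.6 and 6.77, and 6.58 and 5.27. Of the 10541 both-KO regions with a WT peak, 24 shared under 50 bp with it. Within the members, the KO peaks shared a median of 500 bp, and at 2186 regions, 68.9%, each peak shared at least 50% of its length. At 55 regions they shared under 50 bp, and the least shared was 2 bp, in an intron of Gtf2ird1.

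Regions were spread over all 19 autosomes, from 101 on chromosome 14 to 250 on chromosome 2. As a share of each chromosome's merged regions they ranged from 4.32% on chromosome 11 to 6.96% on chromosome 18.

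In or within 5 kb of a gene lay 82.9% of the KO-only regions. This touched 3514 of 51229 annotated genes, 6.86%, and 2486 of 20807 protein-coding genes, 11.9%. The latter is the background for each list below, without correction for gene length, although a longer gene offers more positions. Among the protein-coding genes with a KO-only region, 428, or 17.2%, had no WT peak in the same window. Lack of a WT peak was common among genes at large. Of all 20807 protein-coding genes, 13110 had a WT DMSO peak in that window and 10531 a WT talazoparib peak. The share of them with neither was not counted. Of the 315 protein-coding genes with 2 or more KO-only regions, 23 had no WT peak.

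Dppa3 stood in that last group with 3 regions in a gene of 3.86 kb. It encodes a factor of naive stem cells, oocytes and germ cells that keeps UHRF1 and DNMT1 from methylating DNA. The first region, 1.79 kb upstream of the start, had 12.7 tags in KO DMSO and 3.84 in KO talazoparib. The promoter region, 0.207 kb upstream, had 3.98 and 4.74 tags, and the exon region, 2.33 kb downstream, had 4.34 and 4.06. Signal was low, and apart from the 12.7 tags every value lay under 5. These peaks rested on few input tags: 3 and 2, 0.5 and 3, and 2 and 2.5 in the same order. The nearest WT peak was 15.2 to 19.7 kb away, at the neighbouring gene Gdf3, where all 4 lists had a peak, with 6.95 and 4.71 tags in WT and 18.3 and 11.4 tags in KO (DMSO first). The 14 CpGs of the exon window printed above contrast with the 4 of the promoter window.

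**Figure D5:**
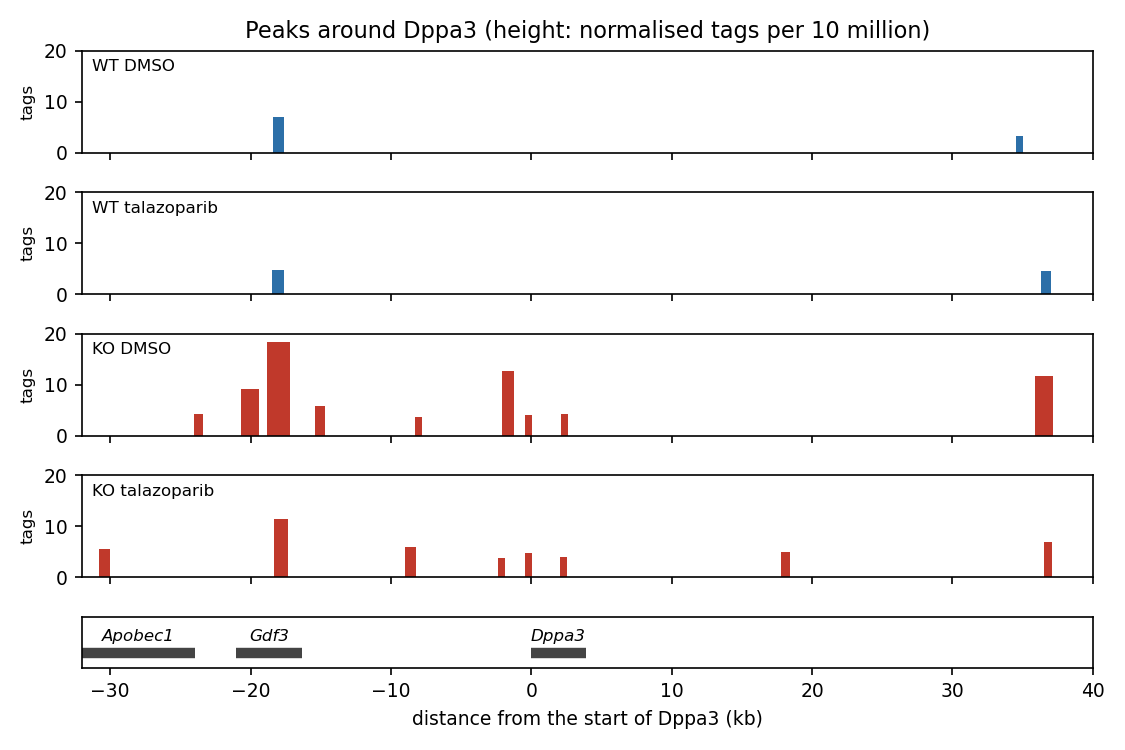
Peaks of the 4 lists from 32 kb before to 40 kb after the start of Dppa3 (x, kb); bar height is normalised tags per 10 M, bar width the peak, and the lowest track shows genes. The 3 KO-only regions near the start have bars in both KO tracks and none in the WT tracks.

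Other genes with several KO-only regions and no WT peak ranged from low to higher signal. Snhg11, a small nucleolar RNA host gene, had 2 regions with 4.12 and 3.54 tags in KO DMSO and 5.95 and 7.08 in KO talazoparib. Among those with more tags was Scrt2, which encodes a neural zinc finger repressor. Its 3 regions had 10.1, 23.3 and 19.6 tags in KO DMSO and 16.9, 18.2 and 34.2 in KO talazoparib. They lay in the 5′ UTR, a coding exon and the 3′ UTR, and the nearest WT peak was 8.89 to 11.4 kb away. B4galt3, a galactosyltransferase, had 2 regions, of which the one with more tags had 26.0 in KO DMSO and 22.6 in KO talazoparib. Coq6, an enzyme of ubiquinone synthesis, shared a region with the start of its neighbour Fam161b, with 16.7 and 21.6 tags and the nearest WT peak 43.9 kb away. Zfp14, a zinc finger gene, had 3 regions, with 6.36, 7.66 and 12.9 tags in KO DMSO and 5.42, 6.10 and 9.63 in KO talazoparib.

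Of 29 genes of base excision and strand break repair, 3 had a KO-only region, 10.3% against the 11.9% of protein-coding genes. Xrcc1, the scaffold that assembles single-strand break repair, had one at an annotated start, with 35.6 tags in KO DMSO and 39.8 in KO talazoparib over 10 and 25 input tags. Aplf, an accessory factor of end joining, had an intronic region with 9.47 and 4.97 tags. Tdg, Parp1, Parp2 and Lig3 had none.

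The ADP-ribose list had 3 of 21 genes, 14.3%. Parp11, a mono-ADP-ribosyltransferase, had a region at an internal start with 16.4 tags under DMSO and 19.7 under talazoparib. The nearest WT peak was 54.4 kb away. Parp14 had one at its start with 10.7 and 6.47 tags, and the tankyrase gene Tnks had one in an intron with 7.45 and 5.19. Fanconi and recombination genes had 3 of 29, 10.3%. The region in Fancl, the ubiquitin ligase of the Fanconi pathway, had 25.0 and 19.4 tags and was 185 kb from any WT peak. Fancd2 and Fancm had intronic regions of 3.99 to 6.40 tags. Of the p53 and damage response list, 4 of 25 genes had a region, 16.0%. The start of Trp53bp1, a double-strand break factor, had 18.1 and 15.8 tags with no WT peak in the gene's window, while Cdkn1a, Zmat3 and Mdm4 had 3.33 to 8.60 tags.

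DNA methylation and demethylation genes had 6 of 25 with a region, 24.0%, and 11 regions in all, 3 of them at Dppa3. Their median length was 27.9 kb against 17.6 kb for protein-coding genes, and Tet1 and Dnmt3a span 104 and 108 kb. Signal was below the set's average, with medians of 5.13 tags in KO DMSO and 4.74 in KO talazoparib. Dnmt3a, a de novo methyltransferase, had 2 regions at internal starts with 7.01 and 4.19 tags in KO DMSO and 5.87 and 4.29 in KO talazoparib. Dnmt3l, its catalytically inactive partner, had 2 regions with 5.13 and 6.22 tags in KO DMSO and 7.60 and 6.93 in KO talazoparib. Tet1, which oxidises 5-methylcytosine to the products TDG removes, had 2 intronic regions with 6.80 and 6.58 tags in KO DMSO and 6.55 and 4.59 in KO talazoparib. Idh2 and Dnmt3c had 1 each, with 3.33 to 7.38 tags, and that of Idh2 lay past the end of the gene at another annotated start. Of 8 genes linked to TDG in earlier work, 0 had a region.

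Naive pluripotency genes had 4 of 25 with a region, 16.0%, and core pluripotency genes 2 of 13, 15.4%. An intronic region of Esrrb, an orphan nuclear receptor of the naive network, had 28.8 tags in KO DMSO and 27.9 in KO talazoparib, but a WT talazoparib peak lay 0.0600 kb away. A further Esrrb region had 9.25 and 7.60 tags. Tfcp2l1 had 2 regions with 5.86 to 8.17 tags over both lists, and Fbxo15 had 2 with 3.33 to 7.23. Sall1, a zinc finger factor, had an intronic region near its start with 25.9 and 37.6 tags, 0.706 kb from a WT DMSO peak. Pou5f1, which encodes OCT4, had one with 8.53 and 10.2 tags, 0.702 kb from a WT peak. At these genes the KO-only regions were thus partly neighbours of WT peaks.

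Among regulators of development under polycomb control, 8 of 63 had a region, 12.7%, with medians of 8.17 and 8.05 tags. Pax5 had 4 intronic regions, and one of 2 in Lmx1b reached 19.2 tags in KO DMSO and 25.4 in KO talazoparib. Foxl2 had one at its start with 8.75 and 9.03 tags. Polycomb and trithorax complex genes had 5 of 33, 15.2%. The start of Setd1b, an H3K4 methyltransferase gene, had 15.8 and 35.2 tags, and Epop, a PRC2 partner, had 31.1 and 14.5, so the former had more tags under talazoparib and the latter under DMSO. Imprinted genes had 7 of 54. Ascl2 had 27.7 and 28.2 tags with the nearest WT peak 37.6 kb away. H13 had 3 regions of 3.84 to 13.4 tags over both lists. Germline genes with methylation-controlled promoters had 3 of 26, 11.5%, and the starts of Stk31 and Mov10l1 had 8.10 and 6.02, and 4.34 and 6.02 tags, with no WT peak in either gene's window.

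Glycolytic enzymes had 6 of 20, with medians of 6.11 and 6.21 tags. The regions in Gpi1 and past the ends of Eno1 and Eno2 had 3.98 to 6.93 tags over both lists, and all 3 genes also had WT DMSO peaks. That of Eno2 lay at another annotated start. Very long genes had 10 of 26, 38.5%, but their median length was 1397 kb against 17.6 kb for protein-coding genes, and a longer gene offers more positions. The region in Auts2 had 23.6 and 7.15 tags, while those in Dab1 and Cdh13 had 5.57 to 12.8. Histone genes had 11 of 67, 16.4%, but shared 6 regions. One at the starts of Hist1h2ai and Hist1h2bl had 35.8 and 30.1 tags. Clustered protocadherins had 21 of 57, 36.8%, which came from 3 shared regions. Ribosomal protein genes had 10 of 76, 13.2%, and the start of Rpl12 had 22.3 and 16.3 tags.

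Of the remaining lists, some lay above and some below the background. Extraembryonic endoderm genes, of median length 50.8 kb, had 4 of 20, 20.0%. Of these, Col4a1 and Col4a2 share the region at their common start, with 14.4 and 10.2 tags. FGF-ERK genes had 4 of 28, 14.3%, and 5 of their 8 regions lay in Fgfr2, annotated over 2961 kb. Those 5 were 399 to 2523 kb from its annotated start, so they rest on that long annotation. Primed epiblast genes had 2 of 16, Wnt genes 3 of 34, Hox genes 2 of 39, which share 1 region, fibroblast genes 1 of 19 and genes of the 2-cell-like state 1 of 17. Chemosensory receptors, which ES cells do not use, had 8 of 1457, 0.549%.

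By count, the genes with the most KO-only regions were long ones. The readthrough locus Gm20388 had 19 but spans 4435 kb and had 228 KO DMSO and 188 WT DMSO peaks. Sh3pxd2a, an adaptor of invadopodia, had 6 intronic regions over 204 kb, with 4.70 to 13.7 tags in KO DMSO and 5.34 to 12.6 in KO talazoparib. Gse1 had 5 over 353 kb. WT peaks were present in all 3 genes, so their KO-only regions lay among shared ones.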

How the data were processed

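The libraries were 3 IP and 1 input per condition, in 4 conditions. Tools named in the submitters' processing notes are HOMER 4.11, Bowtie2 2.3.4.2, R 3.6 and Picard 2.9.2, on build mm10, with no roles. The deposited tables have HOMER's peak columns per the file headers, 1 table per condition. The authors' normalised tag count is a signal per 10 M IP tags, and the deposited input signal is in tags. Scaled IP tags (another unit, other) were used by the authors for the fold, a ratio to input. The deposited p-value of a peak was at most 8.32e-05, and the authors' score only ranked peaks within a list. Peak values are the authors' own.

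Peaks of chromosomes 1 to 19 were merged where they shared at least 1 bp and annotated by their centre with GENCODE M21 on GRCm38.p6, in the order promoter, transcription end (100 bp upstream to 1 kb downstream), coding exon, 5′ UTR, 3′ UTR, non-coding exon, intron, intergenic. The sources do not say if starts are 0-based. Densities are relative to the mean over 2648 Mb. Medians have order-statistic and shares Wilson 95% intervals. No test was run, since each condition is 1 list. Python 3.11.15, pandas 2.3.3 and pysam 0.24.0 were used, and merging was tested on simulated data (2000 of 2000 planted regions recovered).

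The members and gene lists were chosen with earlier results of these data known. Named were the 12 regions with the highest lower KO tag count and 6 each of promoters, introns and intergenic DNA, the 12 protein-coding genes with the most members, all list genes of repair, methylation, ADP-ribose and pluripotency with a member, up to 4 of each other list, and 3 regions on each side of the rule's threshold. The text gives those that matter most. Genes with no WT peak (Snhg11, Scrt2, B4galt3, Coq6, Fam161b, Zfp14) were chosen after their values were seen. A few results of the named lists are not reported here.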

Additional observations from a re-analysis of the deposited data

Results flagged for a closer look

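The X chromosome was left out by the rule, and the same pattern of lists was present there. Of 569 merged regions on X, 60 held peaks of both KO lists and neither WT list, which is 10.5%, and 4 held peaks of both WT lists and neither KO list. All 4 lists shared 118. Y had 5 merged regions and 0 of the KO-only kind. What drew attention is a signal in data outside the 19 autosomes, and the difference from the autosomal share of 5.27% was not tested.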

How the results depend on the processing

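The KO-only count of 3174 fell to 1487 with equal numbers of best-scoring peaks, 1231 at a fold of at least 6, and 1796 with no WT peak within 5 kb. Their share of both opposite sets, 82.4%, became 92.2% with at least 3 input tags, 61.3% with equal numbers and 73.2% at a fold of at least 6. The input filter left 18793 KO DMSO and 16528 KO talazoparib peaks, against 19547 WT DMSO and 6057 WT talazoparib peaks. The promoter share of 25.6% became 33.6% for any base in a promoter, against 29.3% of all merged regions by that rule. It became 35.1% for promoters of 2 kb upstream to 500 bp downstream, 37.1% with at least 3 input tags and 38.9% with equal numbers. At 6-fold it was 46.1%, when merging up to 500 bp 24.0% and without WT peaks within 5 kb 27.9%. For the wider promoters, the filtered lists and the 500 bp merging, the share over all merged regions is not given here. Median GC of 51.4% became 52.9% with 3 input tags, 53.5% in the central window, 53.6% with equal numbers and 53.2% at 6-fold. The 3514 genes became 2025 within 5 kb of the start, 1651 at 6-fold and, in settings chosen after seeing the data, 1955 with equal numbers and 1940 without WT peaks within 5 kb. The GC box share of 20.8% was 46.3% over whole regions. The tag ratio of 0.946 was 1.00 where KO peaks share at least 50%, 0.911 with 3 input tags, 0.979 at 6-fold and 1.07 for density. Drops within 1.5-fold were to 2186 regions and 2467 genes where KO peaks share at least 50%, to 2207 regions and 2835 genes with 3 input tags, and to 2360 genes in the gene body alone. KO-only regions outnumbered WT-only ones in all 6 alternative region sets, of which only the cut to equal numbers made the lists the same length.

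No paired analysis was possible because the tables hold 1 value per peak for pooled libraries, so neither a replicate block nor leaving out each replicate was run. Absence from a list rests on a fold threshold over few input tags.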
